A study of Mus musculus with 2 samples.

Results

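Interferon-stimulated genes were followed through the liver cell classes of 2 mouse single-cell RNA libraries. The set held 37 protein-coding genes, taken by symbol from a list of genes that interferons are known to induce, out of 32285 genes in the count tables, and each symbol matched 1 gene. The WT library came from the liver of control mice (genotype label CTRL). Liver together with tumor gave the N-LKO library, from mice in which albumin-Cre, active in hepatocytes, had deleted loxP-flanked alleles of Nus1, the gene for NgBR, a subunit of the cis-prenyltransferase that makes dolichol. Both groups were fed for 16 weeks a diet that the sample titles call HFD and the treatment labels call WD, and livers were perfused with collagenase before hepatocytes, nonparenchymal cells and, in N-LKO, tumor cells were mixed. The mice were male C57BL6 according to the study. Each genotype had 1 library, so genotype, tumor tissue and library cannot be told apart, and no difference below carries a p-value. How many animals went into a library was not given in the sources used here.

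Interferons are cytokines that cells release on sensing viral nucleic acid, or that T and NK cells release in the case of interferon gamma. Type I interferons act through the receptor chains Ifnar1 and Ifnar2 on a complex that holds Stat2 and Irf9 and binds the interferon-stimulated response element (ISRE) in gene promoters. Interferon gamma acts through Ifngr1 and Ifngr2, and its target genes carry the gamma-activated sequence (GAS). The induced proteins include transcription factors, sensors of foreign nucleic acid, enzymes that degrade RNA or block its translation, and GTPases that attack the vacuoles of intracellular microbes. Kupffer cells, the resident macrophages of the liver, and plasmacytoid dendritic cells (pDC), specialised producers of type I interferon, are known for a strong interferon response.

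The promoters show what these genes share apart from their names. RefSeq promoter windows of 300 bases (250 before and 50 after the start of transcription, GRCm38.p6) were found for 29 of the 37 genes. The ISRE core GAAA-any 2 bases-GAAA, searched on both strands, was in 17 of the 29 windows (58.6%) and in 3.99% of the 27025 genes with a window. The GAS core TTCNNNGAA was in 8 of the 29 (27.6%), against 9.55% of all genes. The cores can overlap each other in a promoter, and a match describes the letters, not bound protein. Stretches around the cores are printed for genes whose levels are described below, read along the gene's own strand. Capitals mark the ISRE core, or the GAS core for Irf1. TTTC-any 2 bases-TTTC is the ISRE core read from the opposite strand.
Gbp2, chr3:142620584-142620633, plus strand: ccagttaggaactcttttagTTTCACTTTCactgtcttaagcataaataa
Gbp7, chr3:142530263-142530312, plus strand: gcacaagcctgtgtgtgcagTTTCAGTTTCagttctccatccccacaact
Igtp, chr11:58199502-58199551, plus strand: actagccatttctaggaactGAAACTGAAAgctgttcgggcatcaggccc
Irgm1, chr11:48871421-48871470, minus strand, 2 overlapping cores: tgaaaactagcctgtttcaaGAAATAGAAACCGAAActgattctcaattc
Isg15, chr4:156200855-156200916, minus strand, 3 overlapping cores: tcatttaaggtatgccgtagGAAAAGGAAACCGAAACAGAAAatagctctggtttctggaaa
Ifit3, chr19:34583353-34583436, plus strand, 2 cores: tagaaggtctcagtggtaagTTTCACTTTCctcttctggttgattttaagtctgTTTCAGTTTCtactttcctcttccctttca
Oas3, chr5:120777705-120777754, minus strand: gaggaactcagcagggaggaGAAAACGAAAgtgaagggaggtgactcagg
Rsad2, chr12:26456543-26456592, minus strand: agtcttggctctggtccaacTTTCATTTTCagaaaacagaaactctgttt
Irf1, chr11:53769904-53769952, plus strand, GAS core: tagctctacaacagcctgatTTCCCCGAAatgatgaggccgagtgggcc
All of these stretches lie before the start of transcription of the RefSeq window. By the GRCm38 gene models, the Irgm1 stretch and the Gbp2 core lie after the start of the gene. The GTPase genes Gbp2, Gbp7, Igtp and Irgm1, each lower at least 2-fold in some N-LKO class, and Oas3 and Rsad2, each higher in some class, held the same ISRE core. The windows of Gbp7 and Igtp also held the GAS core, in Igtp within the printed stretch in lower case. Those of Gbp2, Irgm1, Oas3 and Rsad2 held no GAS core, and that of Oas1a, higher in T/NK-like cells, held both cores.

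After filtering, 18431 WT and 19855 N-LKO cells remained, with a median of 1400 and 1455 UMIs (unique molecular identifiers, 1 per captured transcript). Clustering gave 23 clusters, of which 20 were named from marker genes, and 10 classes held at least 200 cells in each library. UMIs were summed per class and library and scaled to the total UMIs of the class (CPM, counts per 1e6 UMIs). Intervals are exact 95% intervals and cover counting error alone, not the spread between animals. Nus1 stood at 73.1 CPM in WT against 33.9 CPM in N-LKO hepatocyte-like cells (log2 ratio -1.11, interval -1.30 to -0.92), and its log2 ratio was between -0.50 and 0.11 in the other 9 classes. The summed CPM of 8 monocyte or macrophage markers was higher in the N-LKO library in all 10 classes, from 78.9 against 244 in hepatocyte-like cells to 3530 against 4192 in monocyte/macrophage-like cells. The mitochondrial share of UMIs was lower in N-LKO hepatocyte-like cells (15.3%, WT 20.8%) and higher in N-LKO in each of the other 9 classes. What part these differences have in the results below was not tested.

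The summed level of the 37 genes was highest in Kupffer-like cells of both libraries, at 2718 CPM in WT against 2338 CPM in N-LKO. Hepatic stellate-like cells followed in WT with 2411 CPM and were at 1844 CPM in N-LKO. The 521 WT cells that kept this name at a finer clustering held 2071 CPM, below the pDC-like and monocyte/macrophage-like classes, and the 385 others, rich in Kupffer markers (5745 CPM), held 2788 CPM. pDC-like cells held 2305 and 2161 CPM and monocyte/macrophage-like cells 2286 and 2144 CPM, and the WT intervals of these 2 classes and of hepatic stellate-like cells overlapped. A middle range between 1062 and 1503 CPM held the endothelial-like, T/NK-like, cDC-like (conventional dendritic), B-like and cholangiocyte-like cells of both libraries. Hepatocyte-like cells were lowest, with 699 CPM in WT against 802 CPM in N-LKO, close to the 684 and 668 CPM of barcodes under 500 UMIs, which hold free RNA. The log2 ratio of the sums was -0.39 in hepatic stellate-like cells (interval -0.46 to -0.31) and -0.22 in Kupffer-like cells (-0.26 to -0.17). It was 0.20 in hepatocyte-like cells (0.16 to 0.24) and within 0.20 of 0 in the other classes. With a mitochondrial limit of 10% the hepatic stellate-like ratio was -0.0065, and with free RNA subtracted it was -0.25. The Kupffer-like ratio was -0.15 when scaled without mitochondrial, Malat1 and hepatocyte genes, and the hepatocyte-like ratio ran from 0.016 under that scaling to 0.54 with free RNA subtracted. Of the UMIs of hepatocyte-like cells, the estimate assigned 82.2% to free RNA for the WT library but 40.6% for the N-LKO library. The part of this unequal removal in the subtracted values of that class, here and below, was not tested. In hepatocyte-like cells the median of all genes was itself at 0.36, so that relative to it the members' sum was lower in N-LKO, at -0.16.

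**Figure D1:**
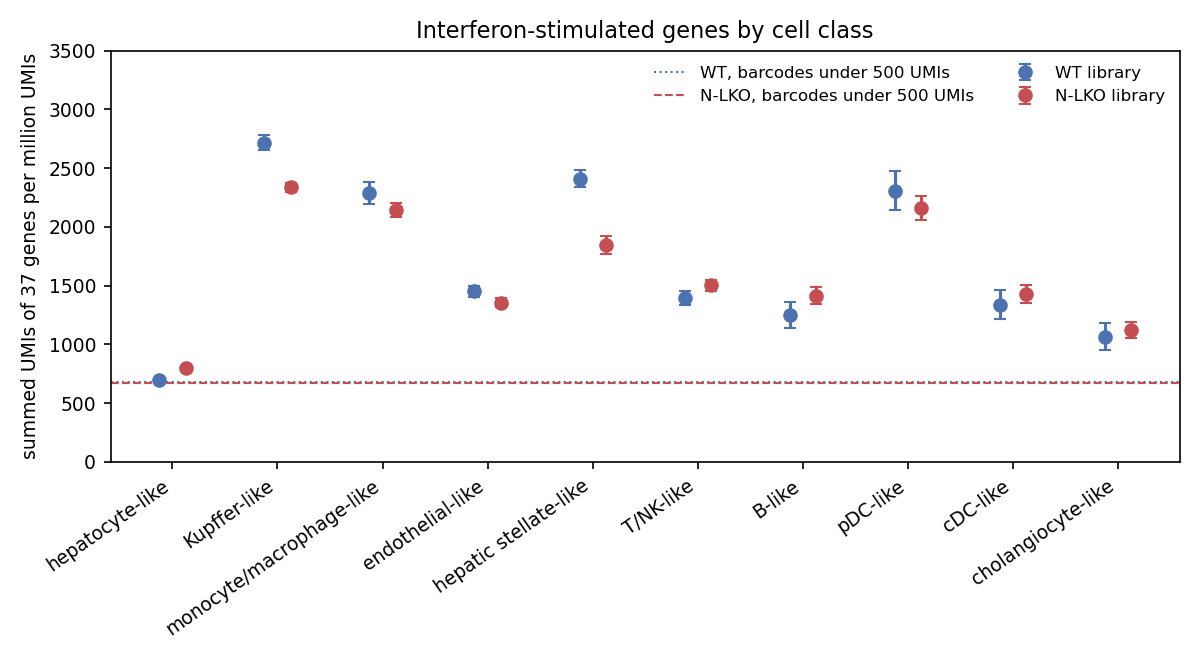
Summed UMIs of the 37 interferon-stimulated genes in CPM (vertical axis) in 10 cell classes (horizontal axis) of the WT library (blue) and the N-LKO library (red), with exact 95% counting intervals. Lines mark barcodes under 500 UMIs of each library (684 and 668 CPM). Kupffer-like cells lead in both libraries, and the widest gap between the libraries is in hepatic stellate-like cells (2411 and 1844 CPM).

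Single genes were compared in a class when their mean level was at least 5 CPM and at least 10 UMIs were counted, and a gene was counted as higher or lower when its CPM differed at least 2-fold. With 0.5 UMI added to each sum, log2 ratios are N-LKO over WT throughout. Of 370 pairs of gene and class, 343 passed the level filter, 17 were higher (4.96%) and 19 lower (5.54%) in N-LKO. Over all genes of the same classes 10.2% were higher and 7.33% lower. The balance depended on the processing: 27 were higher with free RNA subtracted, while 11 were lower with a minimum of 500 UMIs per cell and 9 were lower relative to genes of the same genomic span. The 16 members that passed 2-fold in no class were Ifit1, Ifit2, Ifi35, Ifi44, Ifih1, Stat2, Usp18, Bst2, Rtp4, Ddx58, Eif2ak2, Parp9, Parp14, Xaf1, Samd9l and Herc6. In hepatocyte-like cells 29 members could be compared, with none higher (20.1% of all genes) and 1 lower, Irf7 (2.31% of all genes). The 8 below the filter there were Ifit2, Oas1a, Oas2, Oas3, Dhx58, Zbp1, Gbp3 and Cmpk2. In Kupffer-like cells none of 37 was higher (3.74%) and 2 were lower, Gbp2 and Gbp7 (5.85%).

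The count of lower genes was largest in hepatic stellate-like cells, where 7 of 37 members were lower (6.97% of all genes) and 1, Oas3, was higher (8.28%). Monocyte/macrophage-like cells had 2 lower genes among 37, Irf1 and Gbp2 (8.78%), and no higher one (5.44%). Among 34 genes in endothelial-like cells Dhx58 was lower (6.93%) and none was higher (10.2%). T/NK-like cells had 3 higher members among 36 (10%) and 1 lower (7.74%), and B-like cells 3 higher among 36 (12%) and none lower (9.44%). pDC-like cells had 4 higher of 33 (10.4%) and 1 lower (9.76%), and cDC-like cells 3 higher of 33 (10.4%) and 1 lower (7.36%). Cholangiocyte-like cells had 3 higher (11.7%) and 3 lower (8.2%) of 31. The median log2 ratio over the members compared lay between -0.24, in hepatic stellate-like cells, and 0.28, in T/NK-like cells. The median of all genes was -0.07 and 0.04 in these classes. In the remaining 8 classes the members' median was within 0.16 of the median of all genes.

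**Figure D2:**
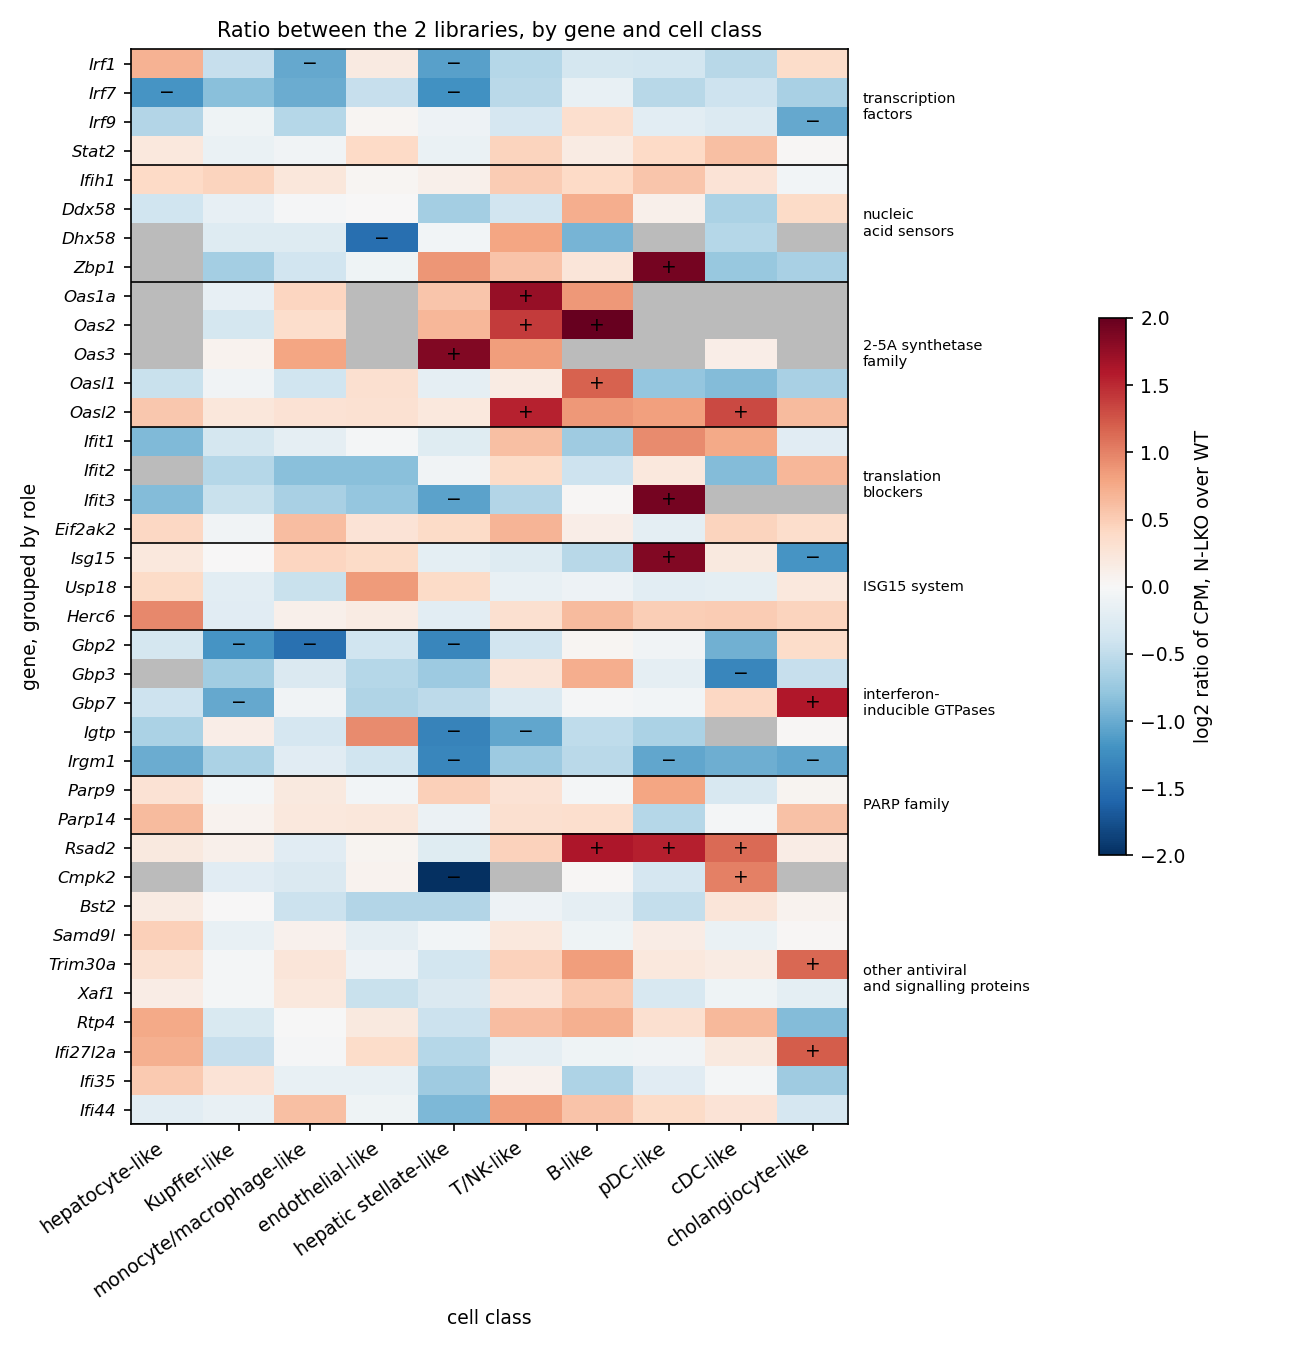
Log2 ratio of CPM, N-LKO over WT, for the 37 genes grouped by role (vertical axis) in 10 cell classes (horizontal axis). Blue is lower and red higher in N-LKO, grey pairs were under the level filter, and a plus or minus sign marks a difference of at least 2-fold. Of the 17 plus signs 7 are in the oligoadenylate synthetase family, 3 in Rsad2 and 7 in other members, and of the 19 minus signs 10 are in the GTPases, 4 in Irf1 and Irf7 and 5 in other members.

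Among the transcription factors, Irf7 and Irf1 were lower in the N-LKO library in macrophage and stellate classes, while Stat2 passed 2-fold in no class and Irf9 in 1. Irf7, the factor that amplifies type I interferon production, was below WT in all 10 classes. In Kupffer-like cells, its highest class in WT, it stood at 97.3 CPM in WT against 54.6 CPM in N-LKO (log2 ratio -0.84, interval -1.08 to -0.59). Monocyte/macrophage-like cells had 53.0 and 26.7 CPM (-0.99, -1.54 to -0.43), and hepatic stellate-like cells 51.4 and 21.9 CPM (-1.21, -1.93 to -0.57). In pDC-like cells, which use Irf7 for interferon production, it was at 62.2 and 42.9 CPM, and the interval of that ratio spanned 0. Barcodes under 500 UMIs also held less Irf7 in N-LKO, 22.0 against 15.4 CPM, and with an estimate of free RNA subtracted the log2 ratio was -0.87 in Kupffer-like, -1.11 in monocyte/macrophage-like and -1.23 in hepatic stellate-like cells. In B-like cells it was then -0.0028, and the estimate left no value in hepatocyte-like and cholangiocyte-like cells.

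Irf7 in hepatocyte-like cells was at 15.9 CPM in WT against 6.94 CPM in N-LKO (log2 ratio -1.18, interval -1.62 to -0.78), below the level of barcodes under 500 UMIs in both libraries, so hepatocyte expression was not detectable above free RNA. Hepatocyte-like cells of the libraries fell largely into separate clusters. A cluster of 8167 WT and 64 N-LKO cells and clusters of 1189, 328 and 154 WT cells stood beside a cluster of 2061 N-LKO cells and a mixed-library cluster of 101 WT and 2009 N-LKO cells. Irf7 was at 15.4 CPM in the 8167 WT cells and at 5.99 CPM in the 2061 N-LKO cells. In the cluster of 101 WT and 2009 N-LKO cells it was at 19.0 CPM from 4 UMIs in WT and 7.36 CPM from 33 UMIs in N-LKO. The 64 N-LKO cells that clustered with the 8167 WT cells had 25.8 CPM from 3 UMIs, the opposite order.

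Irf1, a factor induced by interferon gamma through the GAS core shown above, had its highest level in WT monocyte/macrophage-like cells. It stood there at 125 CPM in WT against 61.8 CPM in N-LKO (log2 ratio -1.02, interval -1.37 to -0.66). Hepatic stellate-like cells had 99.2 and 46.5 CPM (-1.08, -1.57 to -0.64), T/NK-like cells 84.8 and 57.2 CPM, and Kupffer-like cells 94.5 and 68.9 CPM, each with an interval below 0. Hepatocyte-like cells went the other way, at 13.9 and 22.4 CPM (0.69, 0.41 to 0.97), while barcodes under 500 UMIs held 13.8 and 20.7 CPM. Both 2-fold differences of Irf1 sat near the threshold: they passed it under 5 of 10 processing alternatives in monocyte/macrophage-like and 5 of 12 in hepatic stellate-like cells. Irf9, the DNA-binding subunit of the type I complex, was lower at least 2-fold in cholangiocyte-like cells, with 60.6 and 30.2 CPM from 19 and 28 UMIs (-1.02, -1.90 to -0.08). Stat2, its partner, ranged from -0.13 to 0.60 over the 10 classes and was among the highest members in hepatocyte-like cells, at 56.6 and 65.6 CPM.

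The interferon-inducible GTPases (Gbp2, Gbp3 and Gbp7, guanylate-binding proteins, and Igtp and Irgm1, immunity-related GTPases) were lower as a group in N-LKO macrophage, stellate and endothelial classes. Their summed CPM was 213 in WT and 118 in N-LKO Kupffer-like cells (log2 ratio -0.85, interval -1.02 to -0.69) and 227 and 118 in hepatic stellate-like cells (-0.94, -1.24 to -0.66). In monocyte/macrophage-like cells the ratio was -0.63 (-0.92 to -0.34) and in endothelial-like cells -0.44 (-0.66 to -0.22). With free RNA subtracted these ratios were -0.91, -0.82, -0.67 and -0.45. Hepatocyte-like cells had 53.9 and 35.5 CPM, of which the estimate of free RNA made up 43.7 and 16.9 CPM. The remainders of 10.3 and 18.6 CPM stood in the opposite order, while subtraction gene by gene, rescaled to the remaining UMIs, gave -0.33, so no direction above free RNA was shown there. The members compared were below WT in 5 of 5 cases in monocyte/macrophage-like, hepatic stellate-like and pDC-like cells (51.3%, 54.7% and 48.2% of all genes). In Kupffer-like, endothelial-like and T/NK-like cells they were so in 4 of 5 (57.0%, 45.1% and 47.2% of all genes). In B-like and cholangiocyte-like cells the sum did not differ beyond counting error, at -0.07 and 0.02. How reads shared between these related genes were assigned was not given in the sources used here, so the split between single Gbp genes is uncertain.

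Gbp2, which coats and disrupts pathogen vacuoles, was lower at least 2-fold in 3 classes. Kupffer-like cells had 65.1 CPM in WT against 28.7 CPM in N-LKO (log2 ratio -1.18, interval -1.502 to -0.86, from 160 and 168 UMIs). Monocyte/macrophage-like cells had 74.0 and 26.3 CPM (-1.49, -2.01 to -0.98) and hepatic stellate-like cells 59.2 and 23.7 CPM (-1.30, -1.99 to -0.69). In each of these 3 classes the intervals of the libraries did not overlap, and in endothelial-like and T/NK-like cells, at 27.7 and 21.1 CPM and at 20.7 and 16.0 CPM, they did. Barcodes under 500 UMIs had slightly more Gbp2 in N-LKO (7.87 CPM) than in WT (5.63 CPM), the opposite order. The difference stayed past 2-fold under 11 of 11 alternatives in Kupffer-like, 10 of 10 in monocyte/macrophage-like and 10 of 12 in hepatic stellate-like cells. Of Kupffer-like cells thinned to 1000 UMIs, 5.59% in WT and 2.88% in N-LKO held a Gbp2 UMI, against 0.724% and 0.481% of hepatocyte-like cells.

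Gbp7 was at 52.9 CPM in WT against 26.2 CPM in N-LKO Kupffer-like cells (log2 ratio -1.02, interval -1.36 to -0.67), a difference that passed 2-fold under 6 of 11 alternatives. Its neighbour Gbp3 had 54.6 and 33.7 CPM there (-0.70) and was lower at least 2-fold in cDC-like cells, where it rested on 5 UMIs in each library. Gbp7 was higher in N-LKO cholangiocyte-like cells, at 6.38 and 23.7 CPM, from 2 and 22 UMIs (1.60, -0.13 to 5.03). Igtp was lower in hepatic stellate-like cells, with 18.5 and 7.02 CPM (-1.34, -2.73 to -0.25), and in T/NK-like cells, with 17.5 and 8.51 CPM (-1.04, -1.88 to -0.20). In endothelial-like cells Igtp pointed upwards, at 3.78 and 7.52 CPM, with an interval that spanned 0.

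Irgm1, which regulates the other immunity-related GTPases, was below WT in all 10 classes. It was at 41.8 CPM in WT against 16.7 CPM in N-LKO hepatic stellate-like cells (log2 ratio -1.30, interval -2.14 to -0.58) and at 33.8 and 21.9 CPM in Kupffer-like cells (-0.63, -1.04 to -0.21). pDC-like cells had 52.9 and 26.0 CPM and cholangiocyte-like cells 35.1 and 17.2 CPM, both just past 2-fold and from at most 20 UMIs per library. Barcodes under 500 UMIs differed in the same direction, with 23.9 CPM in WT against 9.02 CPM in N-LKO. After subtraction of free RNA the ratio remained at -1.15 in hepatic stellate-like and -0.47 in Kupffer-like cells, came to -0.02 in endothelial-like cells and turned to 0.13 in monocyte/macrophage-like and 2.10 in hepatocyte-like cells, so a lower level in every class was not shown.

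**Figure D3:**
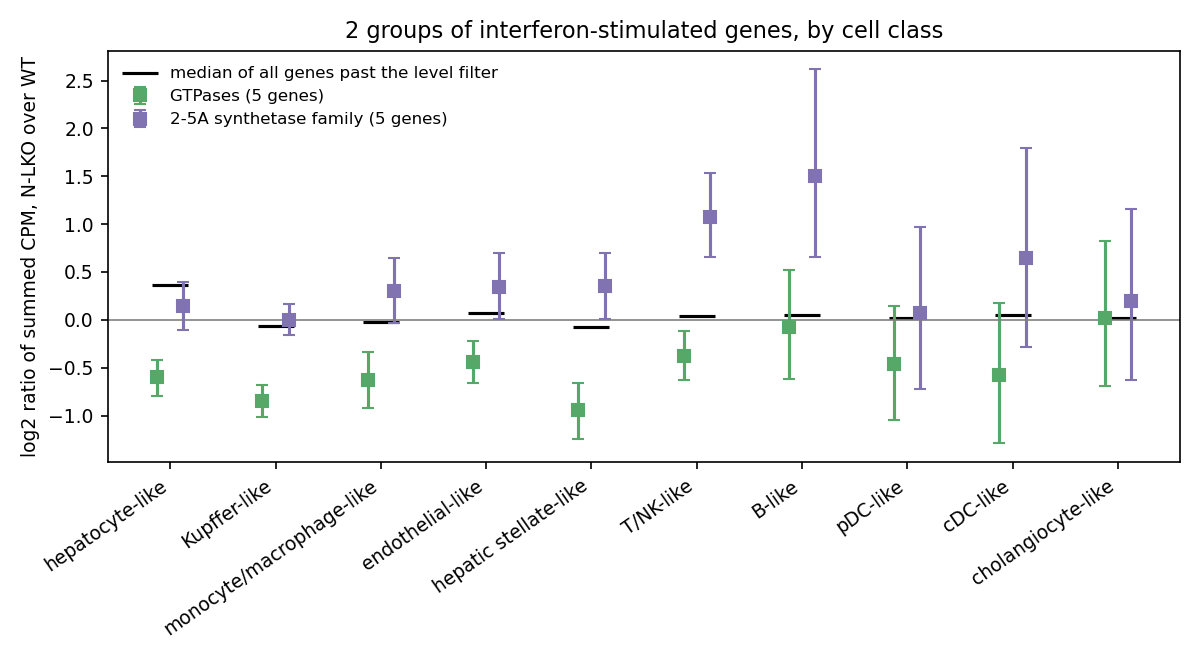
Log2 ratio of summed CPM, N-LKO over WT (vertical axis), for the 5 GTPases (green) and the 5 genes of the oligoadenylate synthetase family (purple) in 10 cell classes (horizontal axis), with exact 95% counting intervals. Black bars give the median of all genes past the level filter. The GTPase intervals lie below 0 in the first 6 classes, and the synthetase intervals lie farthest above 0 in T/NK-like (1.08) and B-like cells (1.51).

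**Figure D4:**
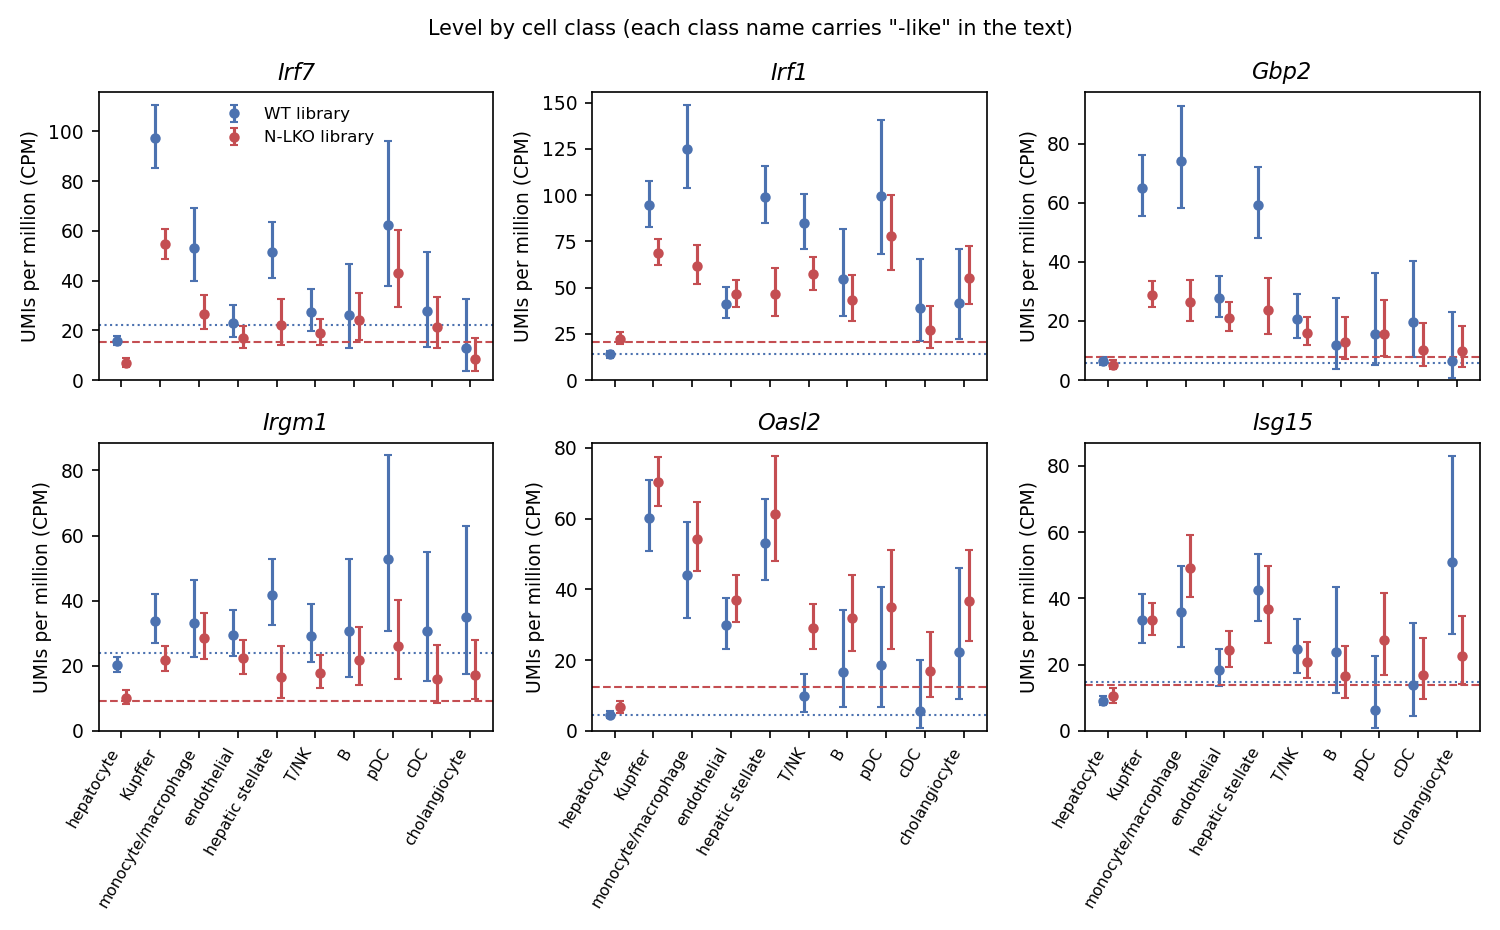
Level in CPM (vertical axes) of Irf7, Irf1, Gbp2, Irgm1, Oasl2 and Isg15 in 10 cell classes (horizontal axes) of the WT (blue) and N-LKO (red) libraries, with exact 95% counting intervals. Dotted blue and dashed red lines mark WT and N-LKO barcodes under 500 UMIs. Gbp2 in Kupffer-like, monocyte/macrophage-like and hepatic stellate-like cells has separate intervals, while Isg15 in Kupffer-like cells is at 33.4 and 33.5 CPM.

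The oligoadenylate synthetase family (Oas1a, Oas2, Oas3, Oasl1 and Oasl2) detects double-stranded RNA, and its active members make 2-5A, the activator of RNase L. Its sum differed most in the T/NK-like and B-like classes, at 36.9 CPM in WT against 78.3 CPM in N-LKO T/NK-like cells (log2 ratio 1.08, interval 0.66 to 1.53) and 26.1 and 77.0 CPM in B-like cells (1.51, 0.65 to 2.62). Hepatic stellate-like (0.36, 0.013 to 0.70) and endothelial-like cells (0.34, 0.0060 to 0.70) also had intervals above 0. In Kupffer-like cells, which held the highest sum, the ratio was 0.00. Oasl2 was above WT in all 10 classes, from 0.21 in hepatic stellate-like cells to 1.54 in T/NK-like cells, where it stood at 9.71 and 28.9 CPM (0.77 to 2.47). Barcodes under 500 UMIs also held more Oasl2 in N-LKO, 12.5 against 4.53 CPM. Oas1a was at 2.59 and 9.53 CPM and Oas2 at 3.88 and 10.9 CPM in T/NK-like cells (1.74, 0.37 to 3.85, and 1.395, 0.21 to 3.04). Oas3 was higher in hepatic stellate-like cells, with 2.99 and 11.4 CPM from 5 and 13 UMIs (1.85, 0.35 to 3.77).

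The T/NK-like sum was divided by a finer clustering. At resolution 1.0 in place of 0.3, 151 of 1170 WT cells and 759 of 1934 N-LKO cells of the T/NK-like class received another name. These cells carried 5678 and 3910 CPM of Kupffer markers and 2097 and 3155 CPM of monocyte or macrophage markers, against 300 and 498 CPM and 274 and 396 CPM in the 1019 and 1175 cells that kept the name. Among the cells that kept it, the synthetase sum was at 17.1 and 23.0 CPM from 22 and 38 UMIs (log2 ratio 0.42, interval -0.37 to 1.26), so a difference was not detectable at this depth. Oas2 had 2 UMIs in each library, Oas1a had 2 and 8, Oas3 had 6 and 9, Oasl1 had 9 and 9, and Oasl2 had 3 and 10 (2.33 and 6.05 CPM, log2 ratio 1.23, interval -0.58 to 3.88), against 1.54 in the whole class. Oas1a, Oas2 and Oasl2 were under the filter of 5 CPM there. Of the 33 members that passed it none was higher at least 2-fold (12.6% of all genes) and 2 were lower (8.22%), Ifit3 and Igtp, while Ifi27l2a was at 188 and 105 CPM (-0.83, -1.13 to -0.55). The summed level of all members was 1178 CPM in WT against 1066 CPM in N-LKO in these cells, the opposite order to the whole class. The renamed cells, which carried most synthetase UMIs and the macrophage markers, made up a larger part of the N-LKO class.

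**Figure D5:**
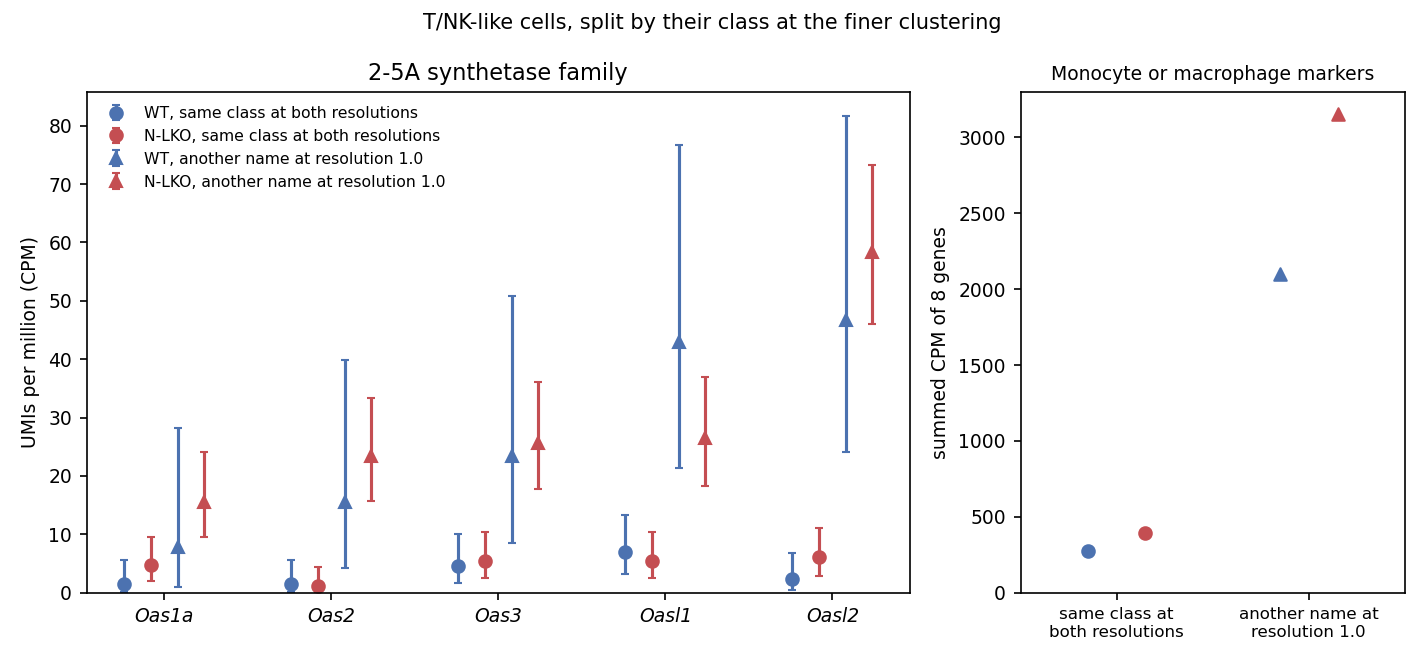
T/NK-like cells of the WT (blue) and N-LKO (red) libraries, divided into cells with the same class at both clustering resolutions (circles) and cells with another name at resolution 1.0 (triangles). The left panel gives the CPM of the 5 synthetase genes with exact 95% counting intervals, and the right panel the summed CPM of 8 monocyte or macrophage markers. Oasl2 is at 46.8 and 58.4 CPM in the renamed cells and at 2.33 and 6.05 CPM in the others.

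B-like cells held 3 higher members, of which Oas2 passed 2-fold through the 0.5 UMI added and its bound did not reach it. Oas2 had 0 UMIs in WT and 14 in N-LKO (12.1 CPM), at least 1.70-fold higher against the level that 3 WT UMIs would give (7.105 CPM). Rsad2, encoding viperin, an enzyme that makes a chain-terminating nucleotide against viral RNA synthesis, was at 7.105 and 25.1 CPM from 3 and 29 UMIs (log2 ratio 1.62, interval 0.13 to 4.18). Oasl1 was at 4.74 and 12.97 CPM from 2 and 15 UMIs, with an interval that spanned 0, and its direction turned to -0.49 with a minimum of 500 UMIs per cell. Among the 268 WT and 583 N-LKO cells that were B-like at both resolutions, Rsad2 was at 5.78 and 25.3 CPM (1.84, 0.11 to 5.26), and 7 of 34 members compared were higher at least 2-fold, where 14.7% of all genes were. Monocyte or macrophage markers in these cells were at 408 and 1316 CPM, so the finer clustering did not take away that difference between the libraries.

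The nucleic acid sensors differed less. Ifih1, encoding MDA5, a sensor of long double-stranded RNA, was above WT in 9 of 10 classes but past 2-fold in none, with 75.7 and 104 CPM in Kupffer-like cells (log2 ratio 0.45, interval 0.21 to 0.70). Ddx58, encoding RIG-I, was at 81.9 and 50.9 CPM in hepatic stellate-like cells (-0.68, -1.16 to -0.23) and at 48.2 and 48.3 CPM in endothelial-like cells. Dhx58, their regulator LGP2, was lower in endothelial-like cells, with 10.1 and 3.47 CPM from 24 and 12 UMIs (-1.51, -2.67 to -0.48). Zbp1, a sensor of Z-form nucleic acid that can trigger necroptosis, was at 36.6 and 22.9 CPM in Kupffer-like cells (-0.68, -1.07 to -0.27). In pDC-like cells it was higher, with 1 and 13 UMIs (1.91, -0.29 to 7.85).

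The translation blockers went in different directions. Ifit3, an RNA-binding partner of Ifit1, was lower in hepatic stellate-like cells, at 59.8 CPM in WT against 28.1 CPM in N-LKO (log2 ratio -1.07, interval -1.71 to -0.50), and its direction turned to 0.14 with a mitochondrial limit of 10%. Ifit2 had intervals below 0 in Kupffer-like (53.3 and 36.1 CPM), endothelial-like (35.2 and 19.7 CPM) and monocyte/macrophage-like cells (28.0 and 15.8 CPM). In hepatocyte-like cells Ifit1 was at 16.1 and 8.67 CPM (-0.88, -1.28 to -0.52) and Ifit3 at 8.11 and 4.39 CPM (-0.87, -1.44 to -0.36). These levels still hold free RNA, estimated at 82.2% of the UMIs of this class in WT and 40.6% in N-LKO. A direction above free RNA was thus not shown for them. Eif2ak2, encoding the kinase PKR that halts translation on sensing double-stranded RNA, was above WT in hepatocyte-like, monocyte/macrophage-like and T/NK-like cells, at 23.3 and 30.9, 41.0 and 63.6, and 34.3 and 55.1 CPM. None of these 3 differences reached 2-fold, and their intervals lay above 0.

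Isg15, a ubiquitin-like protein, did not differ in Kupffer-like cells, at 33.4 and 33.5 CPM (log2 ratio 0.00, interval -0.37 to 0.40). It was lower in cholangiocyte-like cells, with 51.0 and 22.6 CPM from 16 and 21 UMIs (-1.18, -2.18 to -0.14), and higher in pDC-like cells, with 6.22 and 27.3 CPM from 2 and 21 UMIs (1.84, 0.10 to 5.27). Herc6, the mouse ligase that attaches Isg15 to proteins, was at 16.9 and 32.8 CPM in hepatocyte-like cells (0.96, 0.71 to 1.20), the largest ratio of any member compared there, while the median of all genes was at 0.36. Usp18, which removes Isg15 and dampens the type I receptor, had 7.55 and 13.9 CPM in endothelial-like cells (0.85, 0.07 to 1.75).

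Parp9 and Parp14, which modify proteins with ADP-ribose, differed at least 2-fold in no class. Parp14 was at 135 and 142 CPM in Kupffer-like cells and at 78.4 and 92.3 CPM in endothelial-like cells, with intervals that spanned 0. In cholangiocyte-like cells it was at 51.0 and 78.6 CPM. Parp9 in hepatocyte-like cells was at 36.6 and 44.6 CPM (log2 ratio 0.29, interval 0.10 to 0.47), less than the median shift of all genes in that class (0.36), and Parp14 was above that shift, at 26.2 and 40.7 CPM (0.64, 0.43 to 0.84). Both have a genomic span over 30 kb, and the median of all genes of that span was 0.72 there, above both ratios.

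The most abundant members were Ifi27l2a, Bst2 and Trim30a. Bst2, or tetherin, which holds budding virus at the cell surface and is a surface marker of mouse pDC, was highest in pDC-like cells, at 883 CPM in WT against 634 CPM in N-LKO (log2 ratio -0.48, interval -0.69 to -0.26). It was also lower in endothelial-like (266 and 177 CPM), hepatic stellate-like (209 and 139 CPM) and monocyte/macrophage-like cells (184 and 137 CPM), with intervals below 0 and none past 2-fold. Kupffer-like cells had 212 and 214 CPM, T/NK-like cells 139 and 130.0 CPM, B-like cells 156 and 139 CPM, cDC-like cells 128 and 153 CPM and cholangiocyte-like cells 121 and 128 CPM, all with intervals that spanned 0. In hepatocyte-like cells Bst2 was at 144 and 161 CPM. By cluster it was at 62.4 CPM in the 2061 N-LKO cells and at 252 and 247 CPM in the cluster of 101 WT and 2009 N-LKO cells.

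Ifi27l2a, a small interferon-induced membrane protein, was highest in monocyte/macrophage-like cells, at 636 and 625 CPM. Kupffer-like cells of N-LKO had less of it, at 528 and 384 CPM (log2 ratio -0.46, interval -0.56 to -0.36), and hepatic stellate-like cells, at 444 and 299 CPM (-0.57, -0.76 to -0.38). T/NK-like, B-like, pDC-like and cDC-like cells had intervals that spanned 0, with 250 and 221, 216 and 204, 280 and 269, and 159 and 183 CPM. It was higher in cholangiocyte-like cells, with 22.3 and 54.9 CPM from 7 and 51 UMIs (1.21, 0.15 to 2.68). Trim30a, a brake on inflammatory signalling in macrophages, was even in Kupffer-like cells at 215 and 208 CPM. Monocyte/macrophage-like, pDC-like and cDC-like cells had 137 and 162, 187 and 217, and 187 and 209.8 CPM, and endothelial-like cells 87.2 and 81.6 CPM, with intervals that spanned 0. Trim30a was above WT in T/NK-like cells, at 97.7 and 134 CPM (0.45, 0.18 to 0.74), and in B-like cells, at 68.7 and 124 CPM (0.83, 0.26 to 1.48). Hepatic stellate-like cells had less, 143 and 111 CPM (-0.37, -0.70 to -0.06), and cholangiocyte-like cells passed 2-fold at 19.1 and 45.2 CPM from 6 and 42 UMIs (1.14, -0.00017 to 2.77).

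The remaining differences past 2-fold rested on few UMIs in at least 1 library. Cmpk2, a mitochondrial nucleotide kinase, had 23.3 CPM in WT against 5.26 CPM in N-LKO hepatic stellate-like cells, from 39 and 6 UMIs (log2 ratio -2.05, interval -3.68 to -0.90). That difference stayed past 2-fold under 11 of 12 alternatives, and its smallest ratio was -0.19. In cDC-like cells Oasl2 had 2 and 15 UMIs, Rsad2 2 and 13, and Cmpk2 2 and 12, each with an interval that spanned 0, and Rsad2 turned to -0.05 at resolution 1.0. In pDC-like cells Rsad2 had 3 and 24 UMIs (1.55, 0.02 to 4.11) and Ifit3 had 1 and 13. Samd9l, an antiviral translation inhibitor, was the second highest member in cholangiocyte-like cells, at 73.4 and 75.4 CPM.

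Hepatic stellate-like cells were also divided by the finer clustering. Of 906 WT and 642 N-LKO cells, 521 and 509 kept the name, and the renamed cells held 5745 and 7076 CPM of Kupffer markers, against 359 and 507 CPM in those that kept it. In the cells that kept the name Gbp2 was at 45.4 and 21.7 CPM (log2 ratio -1.05, interval -1.94 to -0.25), Irgm1 at 39.7 and 11.4 CPM (-1.75, -2.98 to -0.76) and Ifit3 at 60.2 and 23.9 CPM (-1.31, -2.13 to -0.58). Irf7 was at 24.97 and 10.3 CPM (-1.24, -2.59 to -0.11) and Irf1 at 81.7 and 41.0 CPM, just short of 2-fold. Igtp was at 11.3 and 7.98 CPM, and its interval spanned 0. Of 36 members compared in these cells, 6 were lower at least 2-fold (10.6% of all genes) and 2 were higher (11.6%), Oas2 and Zbp1. Oas3, higher in the whole class, was not among the higher members there but was in the renamed cells. Gbp2, Irgm1, Ifit3 and Irf7 were thus lower at least 2-fold also in the cells with few Kupffer transcripts.

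The share of cells with a UMI of any member was compared after thinning each cell to 1000 UMIs. It was 89.5% in WT and 84.4% in N-LKO Kupffer-like cells, a difference of -5.16 points (interval -7.00 to -3.21), and 84.4% and 78.0% in hepatic stellate-like cells (-6.40 points, -10.4 to -2.47). Monocyte/macrophage-like cells had 84.3% and 80.8% (-3.50 points, -6.59 to -0.21). In the other 7 classes the interval of the difference spanned 0, and hepatocyte-like cells were lowest at 49.3% and 51.1%. Irf7 was detected in 9.31% of WT cells and 5.37% of N-LKO Kupffer-like cells and Ifi27l2a in 37.3% and 27.1%, while Ifi27l2a in hepatocyte-like cells was at 2.97% and 3.65%. Bst2 was in 56.7% and 47.3% of pDC-like cells. Median depths of the unthinned cells were 1383 and 1492 UMIs in Kupffer-like, 1272 and 1375 in pDC-like and 1520 and 1791 in hepatocyte-like cells.

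The ligands were nearly absent. All 20 interferon genes together gave 37 UMIs in the kept WT cells and 58 in N-LKO, and 18 and 17 of them had none. Ifng, interferon gamma, accounted for 35 and 50 of these UMIs and lay mostly in T/NK-like cells, at 16.8 CPM in WT against 10.2 CPM in N-LKO from 26 and 30 UMIs (log2 ratio -0.72, interval -1.53 to 0.10). Ifnb1, the first type I interferon made by most cells, had 0 UMIs in WT, which allows up to 0.103 CPM (3 UMIs of the kept total), and 7 in N-LKO, of which 5 were in Kupffer-like cells.

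The receptors of both pathways were compared next. Over the 10 classes the log2 ratio of Ifnar1 ranged from -0.33 to 0.56, that of Ifnar2 from -0.27 to 0.61 and that of Ifngr2 from -0.58 to 0.21. Ifngr1, the ligand-binding chain of the gamma receptor, was higher in cholangiocyte-like cells, at 44.7 and 93.7 CPM (log2 ratio 1.03, interval 0.25 to 1.999), and was at 15.4 and 29.0 CPM in hepatocyte-like cells (0.91, 0.65 to 1.17). Of 9 receptor and Janus kinase genes, Il10rb, a chain of the interferon lambda receptor, also passed 2-fold, in hepatocyte-like cells at 7.21 and 17.8 CPM (1.30, 0.95 to 1.66). Il10rb was 1 of 8 genes of this list compared there, where 20.1% of all genes were higher. Ifngr1 was 1 of 7 in cholangiocyte-like cells, where 11.7% of all genes were.

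Of 13 genes that sense nucleic acid upstream of interferon, none compared was past 2-fold in Kupffer-like, monocyte/macrophage-like or pDC-like cells. These comparisons held 12, 12 and 9 genes. Of all genes, 3.74%, 5.44% and 10.4% were higher and 5.85%, 8.78% and 9.76% lower in these classes. Ikbke, a kinase that activates Irf3 and Irf7, was higher at least 2-fold in 5 classes, among them hepatocyte-like cells at 11.5 and 36.4 CPM (log2 ratio 1.66, with an interval above 0) and endothelial-like cells at 5.45 and 20.2 CPM (1.85, 1.03 to 2.87). Tlr7, the endosomal receptor for single-stranded RNA, was above WT in 9 of 9 classes compared, with 15.5 and 37.8 CPM in T/NK-like cells (1.26, 0.64 to 1.98). In the T/NK-like cells that kept their name at the finer clustering Tlr7 had 5 and 9 UMIs (0.43, -1.24 to 2.41), and in the renamed cells with macrophage markers it was at 74.0 and 79.4 CPM. Traf3, an adaptor of this pathway, was at 22.5 and 59.0 CPM in hepatocyte-like cells (1.39, 1.19 to 1.58). Ikbke and Traf3 were 2 of 9 genes of this list compared in hepatocyte-like cells, where 20.1% of all genes were higher. Endothelial-like and T/NK-like cells each had 2 of 12 higher (10.2% and 10% of all genes). Among 9 brakes on the response, Socs1, the inhibitor of Janus kinases, was at 10.1 and 3.76 CPM in endothelial-like cells (-1.396, -2.52 to -0.39). It was 1 of 8 brakes compared there, where 6.93% of all genes were lower. Pias1, an inhibitor of interferon signalling, was at 44.9 and 107 CPM in hepatocyte-like cells (1.25, 1.11 to 1.39), as 1 of 6 (20.1% of all genes higher). With 0.5 UMI added, Socs3 was higher at least 2-fold in pDC-like (0 and 13 UMIs), cholangiocyte-like (1 and 14) and B-like cells (1 and 10). These classes had 1 of 7, 2 of 7 and 1 of 8 brakes higher (10.4%, 11.7% and 12% of all genes). The Socs3 interval spanned 0 in cholangiocyte-like and B-like cells.

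A list of 60 other interferon-stimulated genes had its largest count of lower genes in monocyte/macrophage-like cells, where 10 of 55 compared were lower at least 2-fold and none was higher, beside the 8.78% and 5.44% of all genes. Its median there was -0.16, and 24 of the 55 were above 0 (48.7% of all genes). In hepatic stellate-like cells the median was -0.38, with 44 of 56 below 0 (54.7% of all genes). There 7 were lower at least 2-fold (6.97% of all genes) and 2 higher (8.28%). In Kupffer-like cells 4 of 56 were lower, near the 5.85% of all genes, and none was higher (3.74%). Hepatocyte-like cells had 1 of 40 lower (2.31%) and 5 higher, beside the 20.1% of all genes. Iigp1, another immunity-related GTPase, was at 221 and 66.4 CPM in Kupffer-like cells (log2 ratio -1.74, interval -1.93 to -1.55) and at 207 and 64.0 CPM in monocyte/macrophage-like cells (-1.69, -2.01 to -1.38), and was below WT in all 10 classes. Hepatocyte-like cells held 314 and 206 CPM of it, more than Kupffer-like and monocyte/macrophage-like cells in both libraries. Lgals9, a galectin, was likewise below WT in 10 classes, with 337 and 163 CPM in monocyte/macrophage-like cells (-1.05) and 502 and 256 CPM in hepatocyte-like cells (-0.97). Free RNA, estimated at 32.2% and 31.4% of Kupffer-like UMIs and 45.4% and 45.9% of monocyte/macrophage-like UMIs, was not subtracted for Iigp1 and Lgals9. A lower level of either gene in every class was thus not shown. Apol9b was lower at least 2-fold in 8 classes, including hepatocyte-like cells at 49.95 and 22.3 CPM (-1.16, -1.395 to -0.93), although its reads cannot be separated safely from the similar Apol9a.

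Cxcl10, a chemokine that draws T cells through Cxcr3, differed by class. It was at 101 CPM in WT against 32.5 CPM in N-LKO monocyte/macrophage-like cells (log2 ratio -1.64, interval -2.09 to -1.19) and at 57.4 and 14.0 CPM in hepatic stellate-like cells (-1.99, -2.89 to -1.26), where Ifitm1, a membrane protein that hinders virus entry, was also lower, at 380.1 and 159 CPM. Gbp4 was lower in Kupffer-like cells, with 16.7 and 5.47 CPM (-1.60, -2.32 to -0.91). Genes higher at least 2-fold in hepatocyte-like cells included Nlrc5, the activator of MHC class I genes, at 24.9 and 60.9 CPM, and Tdrd7, at 18.1 and 47.8 CPM. Ifi207, a member of the DNA-binding Ifi200 family, was higher in B-like cells, at 35.5 and 104 CPM (1.51, 0.77 to 2.43), and above WT in all 10 classes. It was at 298 and 345 CPM in Kupffer-like cells. N-LKO B-like cells also carried more macrophage markers (351 and 1090 CPM over the whole class), and the part of these in the result was not tested.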

How the data were processed

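Single-cell suspensions of mouse liver were profiled with 10x Genomics 3′ chemistry, in 1 library per genotype. The values deposited by the authors are raw UMI counts per gene and barcode, made with Cell Ranger (7.1.0 per the file headers) and not normalized. The labels also name Seurat and the build mm9. The gene list matched GRCm38 gene models for 32158 of 32285 identifiers, so mm9 was not used for coordinates. Whether intronic reads were counted was not given in the sources used here. Totals were 85522287 UMIs over 100171 barcodes in WT and 87575064 over 90147 in N-LKO, and 121 kept barcodes occurred in both.

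Barcodes with at least 1000 UMIs, at least 400 genes and at most 30% mitochondrial UMIs were kept, and 1727 WT and 2359 N-LKO barcodes with a Scrublet score above 0.25 were removed as doublets. Cells of both libraries were clustered with scanpy 1.11.5 (2000 variable genes without interferon-response genes, 30 principal components, 20 neighbours, Leiden resolution 0.3). A cluster was named from a marker list when its score was at least 0.2 and at least 3 markers were raised 2-fold, and 3 clusters that scored for more than 1 type were left out as mixed. The naming thresholds were set after seeing the data. Because the members were kept out of the variable genes, classes were not formed by their levels, although correlated genes stayed in. UMIs were summed per class and library, and no test was made, since each genotype had 1 library. Poisson, conditional binomial and Clopper-Pearson intervals (differences of shares: Newcombe) were computed with scipy 1.17.1. Free RNA was estimated from barcodes under 500 UMIs. The ratio script was tested on simulated data.

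The members, pathway lists and comparisons were chosen with earlier results of these data known. Named genes are, in each class, members past 2-fold and the 3 with the highest mean CPM, and from pathway lists at most 3 genes past 2-fold per class, besides the receptors, Ifng, Ifnb1 and Nus1. A further gene named by the rule is not reported here. Other members and classes are named where a role or class is described, and these were chosen after their values were seen. Neutrophil-like, plasma-like and erythroid-like cells were left out of the main comparison, with under 200 cells in a library.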

Additional observations from a re-analysis of the deposited data

How the results depend on the processing

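Log2 ratios are N-LKO over WT. Of the summary values recomputed under the alternatives, 237 stayed within the interval of the main value, or within 1.5-fold for counts. A further 27 moved outside, and 8 reversed. For single genes and for counts per class these numbers were 526, 101 and 4. A summary value was called reversed only where its main interval excluded 0, so other changes of sign are not among the 8. The reversed sums were hepatocyte-like cells relative to the median of all genes (-0.16), monocyte/macrophage-like cells at resolution 1.0 (0.0059) and scaled without mitochondrial, Malat1 and hepatocyte genes (0.0043), endothelial-like cells at a mitochondrial limit of 10% (0.12), and T/NK-like cells at a minimum of 500 UMIs (-0.075), with interferon genes among the variable genes (-0.13), at resolution 1.0 (-0.14) and in cells of the same class at both resolutions (-0.14). Reversed single genes were Ifit3 in hepatic stellate-like (0.14) and Irf9 in cholangiocyte-like cells (0.50) at the 10% limit, Oasl1 in B-like cells at 500 UMIs (-0.49) and Rsad2 in cDC-like cells at resolution 1.0 (-0.045). The cause of these reversals was not tested.

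Medians that moved were Kupffer-like relative to genes of the same genomic span (-0.050) and hepatic stellate-like at the 10% limit (-0.045), with free RNA subtracted (-0.063) and relative to span (-0.068). The hepatocyte-like sum was 0.038 at 500 UMIs, 0.16 at the 10% limit, 0.54 with free RNA subtracted, 0.016 when scaled without hepatocyte genes and 0.10 without clusters rich or poor in Malat1. Kupffer-like sums were -0.27 without doublet removal, -0.15 scaled without hepatocyte genes and -0.15 relative to all genes. Endothelial-like sums were -0.0017 at 500 UMIs and -0.17 relative to all genes, hepatic stellate-like sums -0.0065 at the 10% limit, -0.25 with free RNA subtracted and -0.29 scaled without hepatocyte genes, and the cDC-like sum was -0.13 at resolution 1.0. Counts of higher pairs became 27 with free RNA subtracted, 28 without the CPM filter and 51 at 1.5-fold. Counts of lower pairs became 11 at 500 UMIs, 56 at 1.5-fold and 9 relative to span. Without thinning, shares of cells with a member UMI differed by 7.26 points in hepatocyte-like, -2.83 in Kupffer-like and 6.96 in T/NK-like cells.

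At 500 UMIs no cluster was named monocyte/macrophage-like or cDC-like, and at the 10% limit the hepatocyte-like, endothelial-like, hepatic stellate-like and cholangiocyte-like classes alone kept at least 50 cells in each library, so the other classes have no value there. The span reference and the same-class cells were chosen after seeing the data. No paired analysis was possible because each genotype has 1 library, and both carry the same replicate number. Depth limits the pDC-like, cDC-like, B-like and cholangiocyte-like classes most, where most members had under 20 UMIs in WT.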

Other observations

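A few cells held a large part of some members' UMIs. Counting cells in which at least 10 of every 1000 UMIs were from the 37 genes, 4 of 9939 WT hepatocyte-like cells held 37 of the 136 Ifit3 UMIs of their class (27.2%), 32 of 270 Ifit1 UMIs (11.9%) and 29 of 188 Rsad2 UMIs (15.4%). In N-LKO, 5 of 4160 hepatocyte-like cells held 49 of 111 Rsad2 UMIs (44.1%) and 25 of 75 Ifit1 UMIs (33.3%). The highest of these had 41 member UMIs of 1051, from 10 members. Monocyte/macrophage-like cells had 7 such cells of 763 in WT (0.917%, exact Clopper-Pearson interval 0.370 to 1.88) and 15 of 1701 in N-LKO (0.882%, 0.494 to 1.45), and these intervals overlapped. The 7 WT cells held 14 of the 30 Rsad2 UMIs of their class (46.7%). Kupffer-like cells had 7 of 1664 and 10 of 3574. The class levels of Ifit1, Ifit3 and Rsad2 in hepatocyte-like cells therefore rest in part on fewer than 10 cells per library.

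Neutrophil-like cells, with 106 WT and 724 N-LKO cells, were under the minimum of 200 cells in WT. The members' sum was 2522 CPM in WT against 1932 CPM in N-LKO (log2 ratio -0.38, interval -0.54 to -0.22), and 12 of 36 members compared were lower at least 2-fold (13.8% of all genes) and none higher (12%). The lower members were Irf1, Gbp2, Gbp7, Irgm1, Ddx58, Dhx58, Ifit3, Oas1a, Oas3, Oasl1, Ifi35 and Cmpk2, most of them from under 20 WT UMIs. The 5 GTPases together were at 248 and 103 CPM (-1.29, -1.82 to -0.69), from 36 and 114 UMIs, and the oligoadenylate synthetase family at 241 and 160 CPM (-0.61, -1.13 to -0.03).

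In each of the 10 classes, genes with a longer genomic span tended to have a higher log2 ratio. Across all genes Spearman's rho ranged from 0.49 in hepatocyte-like cells (10016 genes) to 0.26 in cDC-like cells (9698 genes), and across the members it ranged from 0.12 (34 genes, endothelial-like) to 0.48 (36 genes, B-like). Genes of a library share its depth and are not independent replicates. Relative to all genes in the same class of span, the members' median was -0.32 in place of 0.20 in hepatocyte-like cells, -0.050 in place of -0.16 in Kupffer-like cells and -0.068 in place of -0.24 in hepatic stellate-like cells, and 9 pairs in place of 19 were lower at least 2-fold. The part of span in these results was not tested.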
